A study of Homo sapiens with 10 samples.

Results

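The genes described here are 10 components of the death receptor pathway: TNFSF10, TNFRSF10A, FADD, TRADD, RIPK1, CASP8, CASP10, CFLAR, DEDD and DEDD2. They were taken by gene symbol from the 58735 genes that both deposited count tables list, and all 10 were found. They were chosen by pathway membership and by their levels and changes between overexpression and control libraries of these data, so their values in that comparison are given as a description, without a test. RNA was measured in TPC-1, an established papillary thyroid carcinoma line with a RET/PTC1 fusion. The design counts 5 pairs without naming what a pair shares. Cells received a PTCSC3-AS1 overexpression vector (OE, 5 libraries) or an empty vector (EV, 5 libraries). PTCSC3-AS1 is a long non-coding RNA whose name places it antisense to PTCSC3. One deposited table, the first set, holds replicates 1 to 3 of OE and EV, and the other, the second set, holds replicates 4 and 5. The column headers differ, with EST_OE and Empty_Vector in the first set and OE and EV in the second. The sources used here do not give what separates the sets, whether they share a vector, or whether replicates were separate cultures. The p-values therefore measure only the spread from library to library, which may be technical.

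Death receptors are cell surface proteins that carry a death domain on their inner side. When a ligand such as TRAIL gathers them, the adaptor FADD binds through its own death domain and recruits the initiator caspases 8 and 10 through its death effector domain, and these caspases then activate each other by proximity. c-FLIP, encoded by CFLAR, joins the same chain and limits caspase activation, whereas TRADD and RIPK1 belong mainly to the branch that runs from the TNF receptor to NF-kappaB. DEDD and DEDD2 also carry a death effector domain, but they are found largely in the nucleus and nucleolus. Many carcinoma lines, thyroid lines among them, carry TRAIL receptors at their surface.

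Depth was 15761474 to 18066559 counts per library. The first principal component of the 1000 most variable genes held 35.8% of the variance and separated the sets. On the second component (14.4%) EV replicate 2 lay at -22.2, whereas the other 9 libraries lay between -8.37 and 10.8. Of 8 epithelial markers, 4 passed the filter on low counts, with PAX8, KRT8 and KRT18 the most abundant, and the 8 summed to 804 to 849 CPM in OE libraries and 692 to 776 CPM in EV libraries of the first set, and to 822 to 833 CPM in OE and 823 to 831 CPM in EV libraries of the second (CPM, counts scaled by library size with TMM factors). NKX2-1 was at 0 in all 10 libraries, CDH1 and EPCAM reached at most 0.319 CPM, and of the thyroid function genes TG reached at most 1.37 CPM while TSHR and SLC5A5 were at 0 in all 10 libraries. Leukocyte markers summed to at most 1.94 CPM and endothelial markers to at most 1.45 CPM. Fibroblast markers summed to 9.13 to 15.6 CPM in OE libraries and 9.22 to 14.9 CPM in EV libraries, with COL1A2 and COL3A1 at 0.

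RefSeq promoter windows (GRCh38.p14, 250 bases before to 50 after a gene's start) matched 7 of the 10 genes, those of TNFSF10, FADD, RIPK1, CASP8, CFLAR, DEDD and DEDD2. No entry was matched for TNFRSF10A, TRADD and CASP10. The windows of FADD, DEDD2 and DEDD are shown because all 5 OE libraries lay beyond all 5 EV libraries for these genes, and the TNFSF10 window is shown for the ligand, which the cells held at a low level. The FADD window is chr11:70203046-70203345 on the plus strand. The other windows are on the minus strand: DEDD2 at its outer start, chr19:42220085-42220384, and at an inner start, chr19:42217628-42217927; DEDD at the outer of its starts, chr1:161132618-161132917; and TNFSF10, chr3:172523381-172523680. Capitals mark letters of 5 motifs, sought on both strands: the NRF1 core GCATGCGC, the GC box GGGCGG, the CCAAT box CCAAT, the TATA box TATAAA and the interferon-stimulated element, which is GAAA, any 2 bases and GAAA again. The motifs were chosen after these windows had been seen.
FADD: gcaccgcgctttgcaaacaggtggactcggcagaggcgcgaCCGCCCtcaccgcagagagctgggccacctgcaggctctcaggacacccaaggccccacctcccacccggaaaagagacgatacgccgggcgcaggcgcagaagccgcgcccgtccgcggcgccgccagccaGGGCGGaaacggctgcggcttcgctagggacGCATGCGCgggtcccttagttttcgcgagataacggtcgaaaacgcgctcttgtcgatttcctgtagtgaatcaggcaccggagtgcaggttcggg
DEDD2 outer start: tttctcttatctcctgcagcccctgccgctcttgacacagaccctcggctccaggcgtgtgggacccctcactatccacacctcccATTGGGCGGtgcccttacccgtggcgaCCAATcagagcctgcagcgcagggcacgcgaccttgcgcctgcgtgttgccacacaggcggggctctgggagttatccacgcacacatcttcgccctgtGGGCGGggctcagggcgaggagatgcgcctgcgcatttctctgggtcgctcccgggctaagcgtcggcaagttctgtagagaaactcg
DEDD2 inner start: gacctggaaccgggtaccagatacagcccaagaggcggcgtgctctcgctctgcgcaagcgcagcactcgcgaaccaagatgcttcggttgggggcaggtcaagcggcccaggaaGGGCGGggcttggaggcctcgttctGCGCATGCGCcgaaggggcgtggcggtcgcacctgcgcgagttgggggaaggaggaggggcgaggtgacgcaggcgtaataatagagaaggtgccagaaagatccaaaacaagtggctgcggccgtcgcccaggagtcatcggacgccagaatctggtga
DEDD: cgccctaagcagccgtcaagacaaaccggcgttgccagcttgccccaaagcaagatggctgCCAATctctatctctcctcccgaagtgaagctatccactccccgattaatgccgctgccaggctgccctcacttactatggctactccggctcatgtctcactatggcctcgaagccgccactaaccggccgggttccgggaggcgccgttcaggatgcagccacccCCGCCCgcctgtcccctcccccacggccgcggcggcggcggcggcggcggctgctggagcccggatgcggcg
TNFSF10: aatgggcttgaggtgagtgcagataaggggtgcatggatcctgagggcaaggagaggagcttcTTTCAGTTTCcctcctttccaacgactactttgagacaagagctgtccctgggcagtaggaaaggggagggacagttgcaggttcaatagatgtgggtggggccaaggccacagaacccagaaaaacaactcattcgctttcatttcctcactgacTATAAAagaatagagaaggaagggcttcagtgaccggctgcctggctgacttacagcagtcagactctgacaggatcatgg

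The NRF1 core stood once in the FADD window and, as 2 overlapping matches on opposite strands, in the inner DEDD2 window. It was found in 3.05% of the 35116 RefSeq windows. The outer DEDD2 window had 2 GC boxes and 2 CCAAT boxes, of which 1 pair overlapped. The DEDD window had 1 of each, and neither held the NRF1 core. GC boxes occurred in 45% and CCAAT boxes in 34.6% of all windows. The TNFSF10 window held 1 TATA box and 1 interferon-stimulated element, letters that 11.5% and 3.57% of all windows held. Among the windows not shown, some of RIPK1 and of CASP8 also held a TATA box or an interferon-stimulated element. The inner DEDD window held 4 GC boxes. A match describes letters and is not a measured binding site.

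The level of each gene was compared between genes in TPM (counts per deposited gene length, scaled to the same total in each library). Over all 10 libraries TNFRSF10A, which encodes the TRAIL receptor DR4, had the highest mean, 78.0 ± 8.33 TPM (SD, n = 10), followed by FADD at 66.5 ± 9.97 TPM and DEDD at 60.3 ± 4.51 TPM. RIPK1 (42.5 ± 5.93 TPM), DEDD2 (42.4 ± 5.50 TPM), CASP8 (38.1 ± 2.64 TPM) and TRADD (28.9 ± 5.31 TPM) formed a middle band. CFLAR lay lower, at 11.1 ± 1.23 TPM over a deposited length of 22529 bases. The ligand gene TNFSF10 (0.909 ± 0.372 TPM) and CASP10 (0.252 ± 0.115 TPM) were at the bottom. The ranges of neighbours overlapped except at 3 steps: the lowest DEDD value, 52.5 TPM, lay above the highest RIPK1 value, 48.0 TPM; the lowest TRADD value, 21.0 TPM, above the highest CFLAR value, 13.3 TPM; and the lowest CFLAR value, 8.77 TPM, above the highest TNFSF10 value, 1.63 TPM. FADD exceeded DEDD in all 5 OE libraries, whereas DEDD exceeded FADD in all EV libraries but replicate 5.

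In the ligand and receptor step the OE and EV libraries overlapped. TNFSF10, which encodes TRAIL, had 1.03, 1.17, 0.742, 0.950 and 0.291 CPM in OE replicates 1 to 5, against 1.58, 0.839, 0.666, 1.15 and 0.575 CPM in EV replicates 1 to 5. These values rest on 5 to 21 counts per OE library and 9 to 28 counts per EV library, and the log2 change was -0.23 (SE 0.38). OE replicate 5 was the lowest and EV replicate 1 the highest, with the other libraries mixed between them. In the first set the log2 change was -0.09, and leaving out each library in turn gave -0.32 to 0.37. In the second set it was -0.48, with a range of -1.55 (without OE replicate 4) to 0.13 (without OE replicate 5), so its sign depended on the library left out. TNFRSF10A had 65.1, 66.8, 67.3, 64.6 and 68.7 CPM in OE libraries, against 71.6, 55.1, 70.6, 61.0 and 62.1 CPM in EV libraries. The OE values lay within the spread of EV, whose lowest value belonged to EV replicate 2, and the log2 change was 0.05 (SE 0.08). In the second set both OE values lay above both EV values, as for 12.3% of tested genes. In bulk RNA a smaller share of cells expressing a gene and less RNA per cell cannot be told apart, for this and every gene below.

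TNFSF10 is among the genes that interferon induces, and the interferon list varied between libraries. The summed level of its 25 genes was 1306, 1207, 1330, 2708 and 1079 CPM in OE replicates 1 to 5, against 1259, 1390, 1317, 2171 and 1012 CPM in EV replicates 1 to 5. Replicate 4 of both groups stood highest. TNFSF10 in those libraries was 0.950 CPM in OE and 1.15 CPM in EV, inside the range of the others. Of its 23 tested genes 0 passed edgeR's adjusted p for OE against EV, 2 had an unadjusted p under 0.05, and 10 had a log2 change above 0 and 13 below. The sets lay in opposite directions, although 0 genes passed in either. In edgeR's test of a change that differs between the sets, 0 of the 23 passed and 0 had an unadjusted p under 0.05. In the first set 4 genes were above 0 and 19 below (median log2 change -0.19, 8 at an unadjusted p under 0.05), and in the second 20 were above and 3 below (median 0.22, 0 at an unadjusted p under 0.05). The part of the interferon level in the TNFSF10 values was not tested.

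FADD had higher values with the overexpression vector. It had 39.7, 33.6, 42.3, 37.2 and 40.0 CPM in OE replicates 1 to 5, against 31.9, 29.2, 30.8, 29.5 and 32.9 CPM in EV replicates 1 to 5. Every OE library lay above every EV library, and the gap between the nearest libraries was narrow, with OE replicate 2 at 33.6 CPM and EV replicate 5 at 32.9 CPM. The means were 38.6 ± 3.29 CPM in OE and 30.9 ± 1.54 CPM in EV (SD, n = 5 each), a log2 change of 0.32 (SE 0.08) or 1.25-fold. The second set gave 0.31 (SE 0.12) and the first 0.32 (SE 0.11). The FADD gene lies at chr11:70203163-70207390 (hg38) on the plus strand. It has a deposited length of 1841 bases and shares 1011 exon bases with the antisense gene AP000879.1, which had 0 counts in all 10 libraries. The library kit does not mark strand, so reads there cannot be told apart. The part of this overlap in the FADD counts and TPM was not tested.

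DEDD2 had higher values in the OE libraries as well. It had 36.9, 34.9, 35.7, 34.5 and 33.6 CPM in OE replicates 1 to 5, against 28.9, 27.2, 28.8, 28.9 and 27.5 CPM in EV replicates 1 to 5. The lowest OE library, 33.6 CPM, lay above the highest EV library, 28.9 CPM. The means were 35.1 ± 1.23 CPM in OE and 28.2 ± 0.847 CPM in EV (SD, n = 5 each), a log2 change of 0.31 (SE 0.07) or 1.24-fold. Within the sets it was 0.33 (SE 0.09) in the first and 0.28 (SE 0.11) in the second. DEDD2 lies at chr19:42198598-42220140 on the minus strand, and no other annotated gene overlaps it.

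DEDD, its relative, had lower values in the OE libraries. It had 43.4, 44.8, 43.8, 47.6 and 47.1 CPM in OE replicates 1 to 5, against 51.8, 56.5, 48.6, 51.4 and 48.9 CPM in EV replicates 1 to 5. All OE libraries lay below all EV libraries, with EV replicate 2 the highest. The means were 45.3 ± 1.89 CPM in OE and 51.5 ± 3.18 CPM in EV (SD, n = 5 each), a log2 change of -0.18 (SE 0.07). It was -0.26 (SE 0.09) in the first set, -0.08 (SE 0.09) in the second, and -0.14 over both sets without EV replicate 2. DEDD (chr1:161120974-161132688, minus strand) shares 638 exon bases with NIT1 on the opposite strand, and the library kit does not mark strand, so reads there cannot be told apart. NIT1 had 43.0, 44.2, 42.6, 31.9 and 29.6 CPM in OE libraries, against 39.7, 51.9, 35.9, 30.9 and 26.9 CPM in EV libraries. The groups overlapped for NIT1, with a log2 change of 0.05 (SE 0.10; edgeR adjusted p = 0.957), and its part in the DEDD values was not tested.

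**Figure D1:**
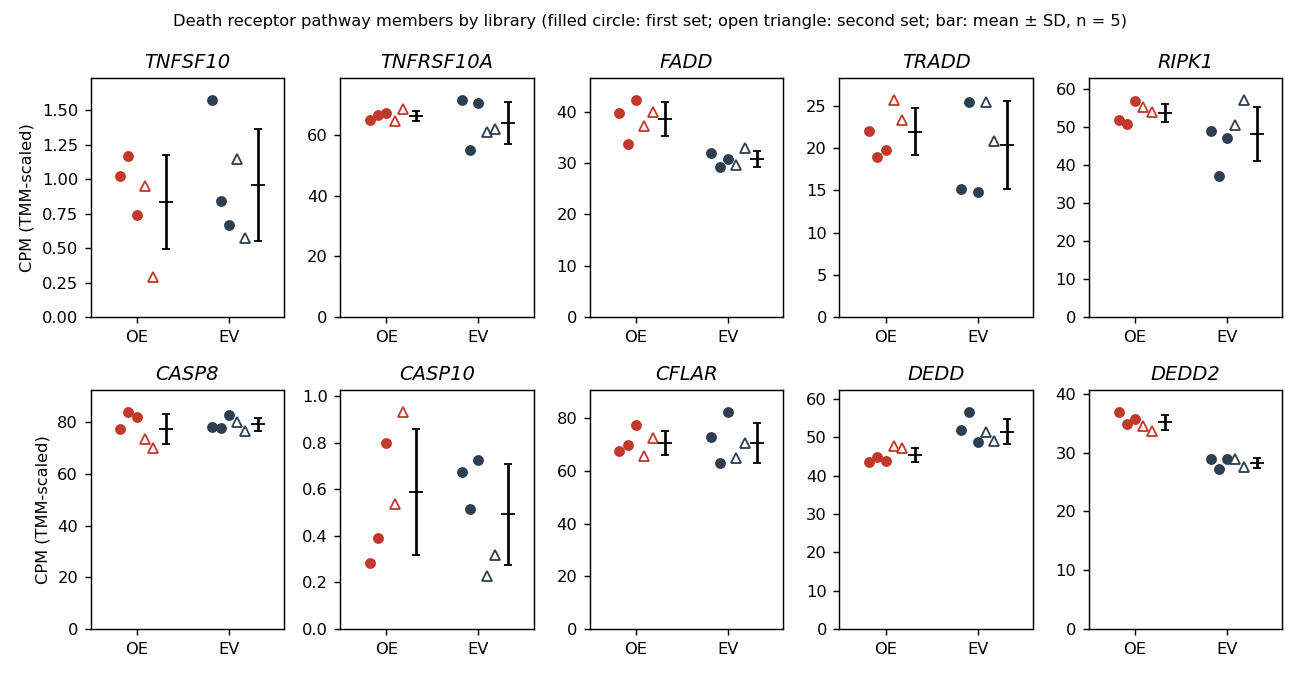
TMM-scaled CPM of the 10 genes in each library, OE left of EV, with filled circles for the first set, open triangles for the second and bars for the mean ± SD of 5 libraries. FADD and DEDD2 lie higher in all OE libraries, DEDD lies lower, and the groups of the other 7 genes overlap.

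For 3 of the 10 genes the OE and EV libraries did not overlap: FADD and DEDD2 were higher, and DEDD was lower. Among the 14217 genes tested over both sets, 0.253% had all 5 OE libraries above all 5 EV libraries and 0.295% had them below. It follows that these 3 genes did not overlap within either set, a pattern that 1.22% of genes showed as higher and 1.01% as lower. In the first set alone, libraries did not overlap for 9.14% of genes as higher and 7.85% as lower, and in the second set for 12.3% and 12.7%. Because the genes were picked with this contrast known, nothing is read from these shares. In edgeR's quasi-likelihood test over both sets 0 of 14217 genes, which include 9 of the 10, passed adjusted p (0%), with 812 (5.71%) at an unadjusted p under 0.05. DESeq2 on the same genes called 6 (0.0422%), and DESeq2 without the filter on low counts called 0. The first set alone gave 5 calls (0.0349%, all lower in OE) and the second set 0 (0%, with 1 call by DESeq2), none of them a gene of the 10. At an unadjusted p under 0.05 there were 1268 genes (8.84%) in the first set and 158 (1.1%) in the second. Without EV replicate 2 the first set gave 1578 calls (10.7%), which include 2 of the 10 genes, TRADD and DEDD2, both higher in OE. Nothing is read from these calls either, because this contrast chose the genes.

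**Figure D2:**
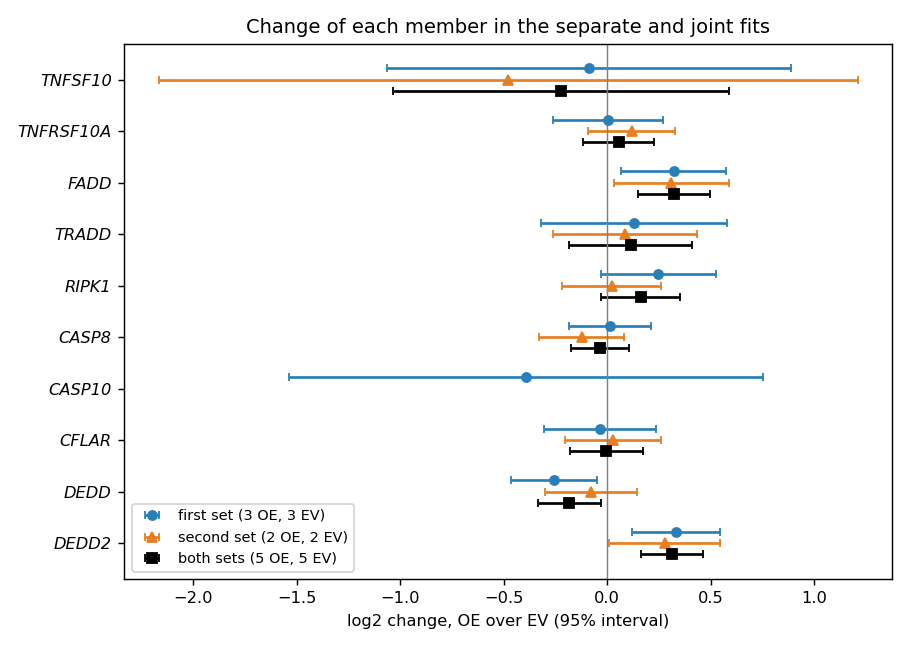
Log2 change of OE over EV for each gene in the first set (3 OE, 3 EV), the second set (2 OE, 2 EV) and both sets, with 95% intervals from edgeR. FADD and DEDD2 lie near 0.3 in every fit, DEDD lies at -0.26 and -0.08 in the sets, and TNFSF10 and CASP10 have wide intervals. The fit over both sets reuses the libraries of the separate fits. Because the genes were picked with this contrast known, the intervals are a description and not a test.

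The TNF branch showed more spread between EV libraries than between groups. TRADD, an adaptor of TNF receptor 1, had 22.1, 18.9, 19.8, 25.7 and 23.4 CPM in OE replicates 1 to 5, against 15.1, 25.4, 14.8, 25.5 and 20.9 CPM in EV replicates 1 to 5. EV replicates 1 and 3 were the lowest of all libraries, whereas EV replicate 2 was among the highest. The log2 change was 0.11 (SE 0.14) over both sets and 0.13 (SE 0.20) in the first set, and without EV replicate 2 these were 0.27 and 0.43. TRADD shares 126 exon bases with FBXL8, which averaged 2.86 CPM. RIPK1, the kinase that links the receptor complexes to NF-kappaB and necroptosis, had 51.8, 50.7, 56.7, 55.1 and 53.9 CPM in OE libraries, against 48.9, 37.2, 47.1, 50.6 and 57.1 CPM in EV libraries. All 3 OE libraries of the first set lay above its 3 EV libraries, as for 9.14% of tested genes. In the second set EV replicate 5 was the highest. The log2 change of RIPK1 over both sets was 0.16 (SE 0.09), and 0.09 without EV replicate 2.

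The caspases and their inhibitor showed little separation. CASP8, the main initiator caspase of the complex, had 77.4, 84.0, 81.9, 73.7 and 70.0 CPM in OE libraries, against 78.4, 77.9, 82.9, 80.1 and 76.8 CPM in EV libraries. The groups overlapped in the first set, and in the second both OE libraries lay below both EV libraries, as for 12.7% of tested genes. Its log2 change was -0.04 (SE 0.06). CFLAR had 67.4, 69.7, 77.3, 65.8 and 72.5 CPM in OE libraries, against 72.7, 62.9, 82.3, 65.0 and 70.7 CPM in EV libraries, with a log2 change of -0.0040 (SE 0.08). CFLAR overlaps antisense and pseudogene annotation, of which CFLAR-AS1 averaged 0.804 CPM. CASP10 rested on 5, 7, 14, 9 and 16 counts in OE libraries, against 12, 8, 12, 4 and 5 counts in EV libraries. It passed the filter on low counts in the first set, where its log2 change was -0.39 (SE 0.51), and did not pass it in the second set or over both.

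CFLAR, CASP10 and CASP8 lie in this order on the plus strand of chromosome 2, with 6193 bases between CFLAR and CASP10 and 4036 bases between CASP10 and CASP8. Mean levels along the cluster were 11.1, 0.252 and 38.1 TPM, so the gene with the lowest level of the 10 lay between neighbours with higher levels. In the second set CASP10 was higher in both OE libraries, as for 12.3% of tested genes. It had 0.534 and 0.931 CPM in OE libraries, against 0.229 and 0.319 CPM in EV libraries. The first set had 0.285, 0.389 and 0.799 CPM in OE libraries, against 0.675, 0.516 and 0.727 CPM in EV libraries, where the groups overlapped. The authors' deposited table gives CASP10 log2 fold changes of 1.202 in the comparison of the libraries numbered 4 and 1.53 in that of the libraries numbered 5. For FADD the authors' deposited table gives 0.34 and 0.29, for DEDD2 0.26 and 0.30, and for DEDD -0.10 and -0.05. Each of these comparisons sets 1 OE library against 1 EV library of the second set. They therefore repeat the values of that set and add no separate measurement.

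Ratios of TPM within a library were compared between libraries, and they use the same values as the changes above. Their size depends on the deposited gene lengths, such as 22529 bases for CFLAR and 1841 bases for FADD, and is not a measured transcript ratio. The DEDD2 to DEDD ratio in TPM was 0.910, 0.836, 0.874, 0.777 and 0.766 in OE replicates 1 to 5, against 0.597, 0.515, 0.636, 0.602 and 0.602 in EV replicates 1 to 5. It averaged 0.833 ± 0.0619 in OE and 0.591 ± 0.0447 in EV (SD, n = 5 each). This ratio could not overlap, because DEDD2 was higher and DEDD lower in all OE libraries. The FADD to CFLAR ratio was 5.91 to 7.22 in OE and 4.57 to 5.69 in EV, also without overlap. The share of all gene pairs with such a separation was not computed. The FADD to CASP8 ratio averaged 1.97 ± 0.245 in OE and 1.53 ± 0.103 in EV, and OE replicate 2 at 1.58 lay below EV replicate 5 at 1.68. The CASP8 to CFLAR ratio overlapped, with 3.42 ± 0.284 in OE and 3.51 ± 0.318 in EV. So did the FADD to TRADD ratio, with 2.47 ± 0.34 in OE and 2.25 ± 0.65 in EV.

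**Figure D3:**
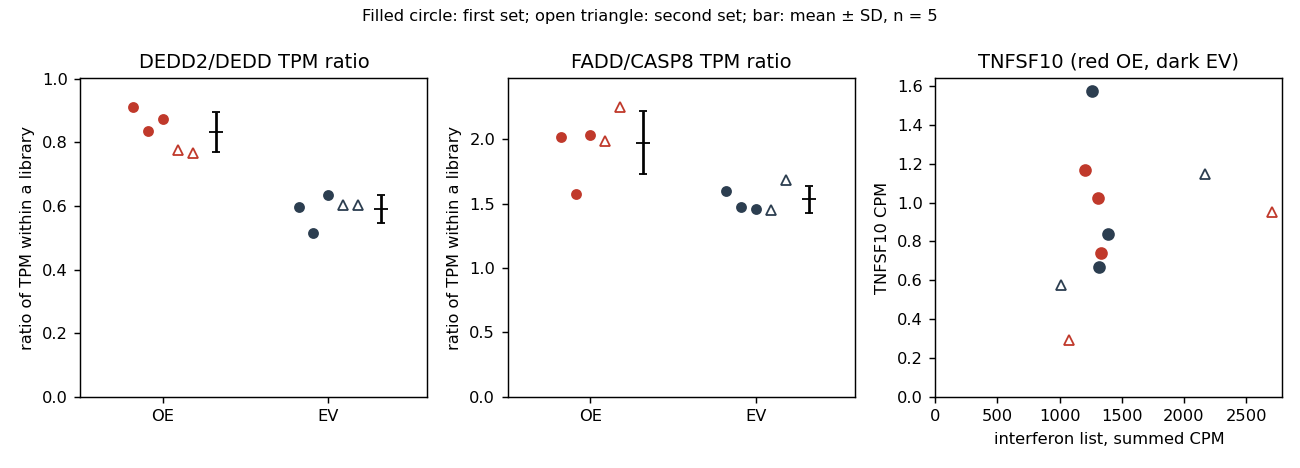
Left and middle, the DEDD2/DEDD and FADD/CASP8 ratios of TPM in each library, OE left of EV, with filled circles for the first set, open triangles for the second and bars for the mean ± SD of 5 libraries. Right, TNFSF10 CPM against the summed CPM of the interferon list, with OE in red and EV in dark blue. DEDD2/DEDD does not overlap between the groups, which follows from the separation of both genes. The libraries with the highest interferon sums, 2708 in OE replicate 4 and 2171 CPM in EV replicate 4, have intermediate TNFSF10 values.

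Across the 10 libraries FADD and DEDD2 correlated at Pearson r = 0.856 in log2 CPM, DEDD and DEDD2 at -0.871, and FADD and DEDD at -0.806. TRADD and CFLAR correlated at -0.793. These libraries share 2 groups and 2 sets, so the values describe how the libraries lie together. The genes most like DEDD2 among 12091 compared were CLEC4E (r = 0.894), CSKMT (0.889) and NOXA1 (0.886). Those most like FADD were DDR1 (0.891), FN3KRP (0.888) and ARF6 (0.886). Those most like TNFSF10, which rests on low counts, were SPNS2 (0.880), GLB1L (0.878) and PRKAR2B (0.872). The highest of so many correlations over 10 libraries is large by selection, and the value that chance gives was not computed. Nothing is therefore read from these names.

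The contrast between the deposited sets was not used to choose the genes, and it was tested in edgeR over all 14217 genes with the group as a term. The second set differed from the first in 2621 genes (18.4%), 1318 higher (9.27%) and 1303 lower (9.17%). Of the 9 genes of the pathway core that were tested, 0 passed (the unadjusted p of TRADD was 0.0481, and DESeq2 also called 0). TRADD came nearest, with 23.9 ± 2.25 CPM in the second set (n = 4) and 19.4 ± 4.07 CPM in the first set (SD, n = 6). Its log2 change was 0.30 (SE 0.14; edgeR adjusted p = 0.148), and without EV replicate 2 it was 0.44 (edgeR adjusted p = 0.00542), where 26.6% of genes passed. RIPK1 had a log2 change of 0.16 (SE 0.09; edgeR adjusted p = 0.246), CASP8 of -0.10 (SE 0.07; edgeR adjusted p = 0.328) and TNFSF10 of -0.44 (SE 0.39; edgeR adjusted p = 0.469). For FADD, DEDD and DEDD2 the 95% intervals of the log2 change between sets were -0.16 to 0.19, -0.13 to 0.18 and -0.19 to 0.11. The OE and EV libraries of these genes did not overlap across the sets, which leaves little room for a shift between sets. Nothing is therefore read from these intervals.

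**Figure D4:**
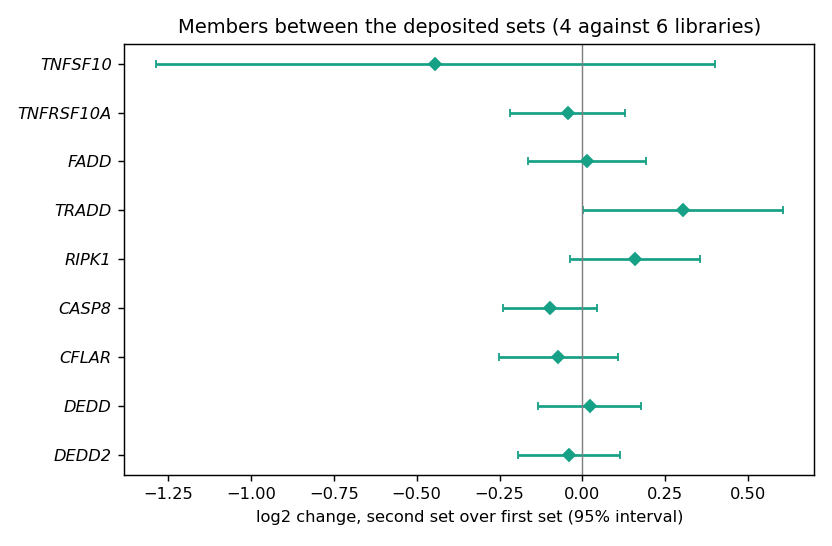
Log2 change of the second set (4 libraries) over the first set (6 libraries) for the 9 tested genes, with 95% intervals from edgeR. The TRADD interval starts just above 0, whereas those of the other 8 genes include 0.

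Around these genes, a list of 56 other genes of the pathway was examined, of which 50 were tested. None of the ligands FASLG, TNF, LTA and TNFSF15 passed the filter on low counts. For OE against EV, 0 of 50 passed in edgeR and 0 in DESeq2, with 2 at an unadjusted p under 0.05. There were 28 above 0 and 22 below, and the median log2 change was 0.01, against -0.0028 for all genes tested. In the first set 24 were above 0 and 26 below, with 7 at an unadjusted p under 0.05. The second set had 38 above and 12 below, with 0 at an unadjusted p under 0.05, and 0 passed in either set. Among receptors, TNFRSF1A, the main TNF receptor, had a log2 change of 0.18 (SE 0.07) and TNFRSF25, the receptor DR3, -0.51 (SE 0.26), which was -0.25 without EV replicate 2. In the first and second sets TNFRSF1A had 0.28 and 0.02, and TNFRSF25 had -0.74 and -0.15. CASP2, the initiator caspase of the PIDDosome, had -0.14 (SE 0.07), and TRAF2, the adaptor that brings ubiquitin ligases to TNF receptor 1, had 0.13 (SE 0.09). RBCK1 (HOIL-1), a part of the linear ubiquitin ligase, had 0.15 (SE 0.07), and BIRC2 (cIAP1), a ligase for RIPK1, had -0.20 (SE 0.10). BAK1, a pore former of mitochondria, had 0.14 (SE 0.07), CASP9, the initiator caspase of the apoptosome, 0.17 (SE 0.11), BCL2L1 (BCL-XL) 0.08 (SE 0.08) and FAIM, an inhibitor of Fas signalling, -0.10 (SE 0.12). The edgeR adjusted p of these 10 genes was 0.847 to 0.922. Leaving out 1 library gave 0.024 (without EV replicate 3) to 0.11 for BCL2L1, -0.16 (without OE replicate 4) to -0.042 (without EV replicate 1) for FAIM, 0.068 (without EV replicate 4) to 0.20 (without EV replicate 5) for TRAF2 and -0.28 to -0.13 (without EV replicate 2) for BIRC2. The log2 change had opposite signs in the first and second sets for BIRC2 (-0.38 and 0.06), FAIM (-0.19 and 0.05) and BCL2L1 (0.17 and -0.06). The edgeR adjusted p of each difference between the sets was 0.9998.

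Between the sets, 10 of the 50 genes (20%) passed in edgeR, 4 higher and 6 lower in the second set, against 18.4% of all tested genes. The list's median log2 change was -0.08, against -0.0012 for all genes tested. Lower in the second set were the receptor FAS, at 37.0 ± 2.82 CPM in the second set and 49.2 ± 9.11 CPM in the first (log2 change -0.39, edgeR adjusted p = 0.0287), and the TRAIL decoy TNFRSF10D, at 48.0 ± 19.0 CPM in the second set and 72.3 ± 9.57 CPM in the first (SD, n = 4 and n = 6; log2 change -0.59, edgeR adjusted p = 0.0398). The necroptosis effector MLKL (log2 change -0.49, edgeR adjusted p = 0.00790), CASP9 (-0.44, 0.0151), the deubiquitinase CYLD (-0.30, 0.0458) and the BCL2 relative MCL1 (-0.23, 0.0138) were lower too. Higher were CASP2 (log2 change 0.29, edgeR adjusted p = 0.0193), the TAK1 partner TAB1 (0.28, 0.0247), the caspase substrate PARP1 (0.20, 0.0336) and RNF31 (0.44, 0.0465), the catalytic part of the linear ubiquitin ligase, which is named after its value was seen. Leaving out 1 library at a time gave 2 to 15 calls in the list. It was 2 without EV replicate 4, 4 without EV replicate 1, 5 without OE replicate 1 or 2, and 6 without EV replicate 5 or OE replicate 3. MLKL and CASP9 passed with each library left out. FAS did not pass without EV replicate 1, 4 or 5, CASP2 without EV replicate 4 or OE replicate 1 or 5, MCL1 without EV replicate 4, and TAB1 without EV replicate 1, 4 or 5 or OE replicate 2. TNFRSF10D passed only without EV replicate 2 or 5 or OE replicate 5, PARP1 only without EV replicate 2 or OE replicate 4, CYLD only without EV replicate 2 or OE replicate 5, and RNF31 only without EV replicate 2 or 3 or OE replicate 5. The edgeR adjusted p of these genes reached at most 0.188 (RNF31), and TAB1, CYLD and PARP1 also did not pass without the filter on low counts.

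**Figure D5:**
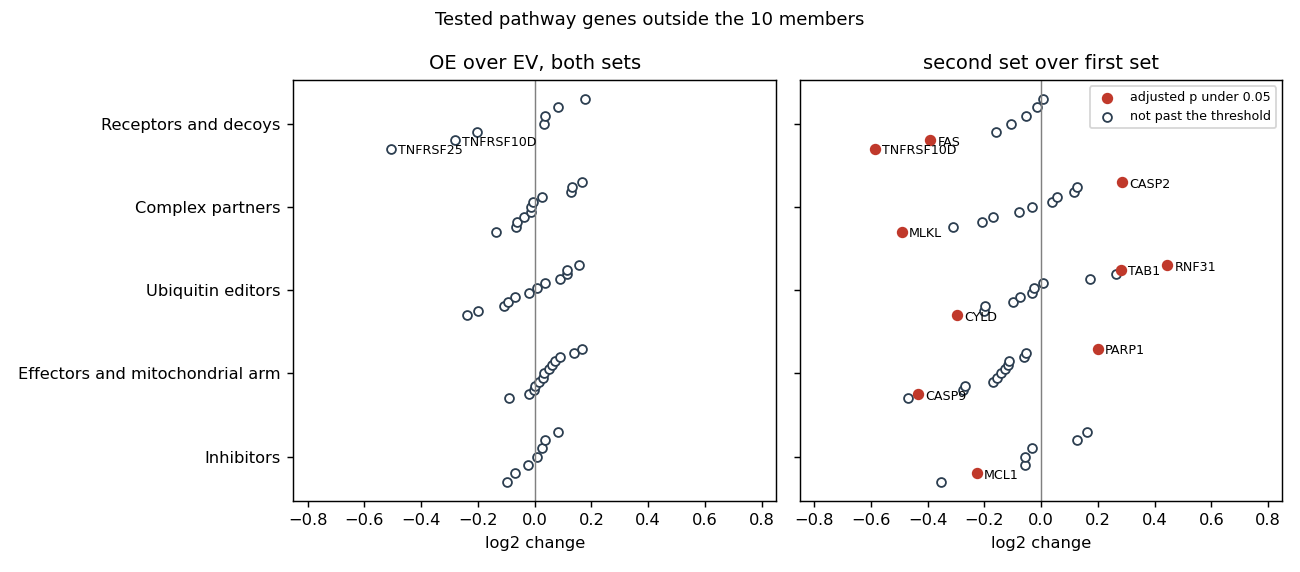
Log2 change of the 50 tested pathway genes by class, OE over EV (left) and second set over first set (right), with filled points for an edgeR adjusted p under 0.05. No point is filled on the left, and 10 are filled on the right, where names mark the genes that passed.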

How the data were processed

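RNA sequencing of TPC-1 cells in 5 OE and 5 EV libraries was analysed from the tables the authors deposited. Per the labels' protocols, RNA came from a TRIzol extraction with DNase I treatment, and NEBNext Ultra RNA libraries were sequenced in paired ends. The submitters' processing notes name CASAVA 1.8, fastp, HISAT2 2.0.5, featureCounts 1.5.0-p3, DESeq2 1.20.0 and hg38, with no role for any of them. The deposited tables hold, per the file headers, a whole-number count per gene and library and a gene length in bases. The second deposited table also holds the authors' log2 fold changes, p-values and adjusted p-values for replicates 4 and 5. The 14 per-library columns of other units were not used.

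Counts were joined by gene identifier and tested with edgeR 4.0.16 in R 4.3.3: TMM scaling, filterByExpr by group (minimum count 10), quasi-likelihood test, Benjamini-Hochberg adjusted p under 0.05 over all tested genes. OE was compared with EV over both sets (set as a term) and within each set. The second set was compared with the first (group as a term), and an interaction term tested whether the OE change differed between the sets. SE is the one the test implies. CPM is TMM-scaled, TPM uses the deposited length, and correlations use log2 CPM with a prior count of 2. At these depths 3 counts equal 0.166 to 0.190 CPM, which covers counting error only. No library was a copy of another: within a group, the chi-square of each pair divided by its degrees of freedom was 4.30 to 53.1 (genes of 20 counts or more). The procedure was tested on simulated data. Alternatives were DESeq2 1.42.0, its size factors, no filter, the replicate number as a block and each library left out. The filter by group and DESeq2 on the filtered genes replaced filterByExpr with the design matrix and DESeq2 on all genes after the calls of a first run had been seen.

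The genes, the pathway list and the marker lists were chosen with earlier results of these data known. Pathway genes named in the text are, per class, the 2 with the lowest p for OE against EV and the 2 with the lowest p between sets. For DEDD2, FADD and TNFSF10 the 3 genes with the highest Pearson r (mean log2 CPM of at least 1) are named. The most abundant genes of the interferon list and part of the marker values are not reported here.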

Additional observations from a re-analysis of the deposited data

Results flagged for a closer look

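TNFRSF10D, a decoy receptor for TRAIL, was at 30.6 CPM in OE replicate 4, apart from the other 4 OE libraries, which lay at 58.8 to 67.1 CPM. EV replicate 4 was likewise the lowest EV library, at 33.3 CPM. This was the only such sample among 54 groups of 5 libraries examined, and chance gives about 5% of groups.

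FAS was lower in all OE libraries of the first set (39.2, 42.2 and 43.4 CPM, against 58.4, 61.3 and 50.6 CPM in EV) and higher in all OE libraries of the second set (37.7 and 40.7 CPM, against 34.7 and 34.9 CPM in EV). The log2 changes were -0.456 and 0.176, and their difference, 0.62 (SE 0.16), had an edgeR adjusted p of 0.9998. BCL2L1 was higher in all OE libraries of the first set (log2 change 0.172) and lower in those of the second (-0.0605), with a difference of -0.24 (SE 0.15; edgeR adjusted p = 0.9998). In the first set libraries did not overlap for 9.14% of tested genes as higher and 7.85% as lower. In the second set the shares were 12.3% and 12.7%. The share of genes with opposite directions in the sets was not computed.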

How the results depend on the processing

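FADD kept a log2 change of 0.28 to 0.37, DEDD2 of 0.30 to 0.32 and DEDD of -0.21 to -0.14 over both sets when each library was left out in turn. Over 1016 alternative values of 71 log2 changes, 955 kept their direction and side of the threshold (or, for untested values, moved by less than 1 SE), 38 lost a call, 8 gained one, 9 reversed and 6 untested values moved. With each library left out, CYLD for OE against EV ran from -0.089 to 0.054. The second set against the first ran from -0.026 to 0.042 for FADD, -0.0051 to 0.058 for DEDD, -0.43 to 0.055 for TNFRSF25 and -0.085 to 0.013 for RBCK1. For OE against EV, CFLAR crossed 0 over both sets (-0.047 to 0.051). TNFSF10, TNFRSF10A, TRADD, CASP8 and CFLAR crossed 0 in the first set, and TNFSF10, TRADD, RIPK1 and CFLAR in the second.

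Calls of OE against EV over both sets were 0, with 23 without a filter and 6 by DESeq2, and 0 when any library was left out. In the first set they were 5, with 90 without a filter, 76 by DESeq2 and 0 to 1578 with a library left out, the highest without EV replicate 2. In the second set they were 0, with 12 without a filter, 1 by DESeq2 and 0 to 1 with a library left out. Calls for a difference between the sets in the OE change were 1, with 28 without a filter, 9 by DESeq2 and 0 to 7 with a library left out. Second set against first gave 2621, and 1312 to 3850 with a library left out, the lowest without EV replicate 4 and 1719 without OE replicate 4; in the pathway list 2 to 15.

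Some settings were chosen after seeing the data. The filter by group and DESeq2 on the filtered genes replaced the settings of a first run after its calls were known, and the switch brought DEDD2 into the DESeq2 calls, from which nothing is read because this contrast chose the gene. With filterByExpr on the design matrix, calls were 0 over both sets, 5 in the first set and 0 in the second. DESeq2 without the filter called 0, 39 and 0, and 8 for the difference between sets. The log2 changes of members within each set under every alternative were also added then. The causes of these shifts were not tested.

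Libraries of the same replicate number deviated together with r of -0.11, 0.0035, 0.16, 0.31 and 0.31, and only 6 of 10 libraries (2 of 6 in the first set, 4 of 4 in the second) correlated best with their own number. With 2 libraries a group, the second set gives 1 value. The design counts 5 pairs without saying what joins them, so whether the numbers pair the samples is not settled, and the fits were kept unpaired. With the replicate number as a block, calls were 0 over both sets, 1 in the first set and 71 in the second, none of them a gene of the 10. Low counts limit TNFSF10 and CASP10.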
